A study of Caenorhabditis elegans with 51 samples.

Results

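The genes described here are the aminoacyl-tRNA synthetases of *Caenorhabditis elegans*, chosen as every gene whose symbol is a single letter followed by ars-1 or ars-2. The rule found 33 genes among the 14033 genes of the table that holds most of the libraries and the same 33 among the 14596 genes of the table made for *sod-2* worms. RNA sequencing was done on whole pre-fertile young adult worms grown at 20 °C, and all strains were compared with the N2 wild type sequenced in the same table. The main table holds 6 libraries each of wild-type worms, *clk-1(qm30)* worms (ubiquinone synthesis), *isp-1(qm150)* worms (the Rieske iron-sulphur subunit of complex III), *nuo-6(qm200)* worms (a subunit of complex I) and *daf-2(e1370)* worms (the insulin/IGF-1 receptor). It also holds 3 libraries each of *sod-1* worms (the cytosolic superoxide dismutase), *prdx-2* worms (a peroxiredoxin) and worms labelled *ctl-1* (a catalase), whose alleles are not given in the sources used here. The second table holds 6 libraries of *sod-2(ok1030)* worms, which lack a mitochondrial superoxide dismutase, and 6 of wild-type worms. The study's methods describe 6 biological replicates per strain, and nothing says that of the strains with 3 libraries, where p-values measure the spread between libraries only. Every strain carries its mutation in all cells, and the 7 mutants of the main table share the same 6 wild-type libraries.

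An aminoacyl-tRNA synthetase joins an amino acid to the tRNA that reads its codons, the step that supplies the ribosome with its building blocks. Animal cells translate in the cytosol and, for a few respiratory chain subunits encoded by mitochondrial DNA, inside mitochondria, and the synthetases of the mitochondria are encoded in the nucleus and imported. In worms, loss of the mitochondrial leucyl-tRNA synthetase *lars-2* is known to lengthen life, and the temperature-sensitive *glp-4* strain that makes no germline carries a change in the cytosolic valyl-tRNA synthetase, listed here as *vars-2*.

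The number in the symbol gives the compartment for most of these genes, with -1 for the cytosolic and -2 for the mitochondrial form. By number there were 20 cytosolic and 13 mitochondrial genes. The descriptions in the files give the opposite for alanine, where *aars-2* is the cytosolic and *aars-1* the mitochondrial enzyme. For valine they name no compartment. There *vars-2*, the gene also named *glp-4*, was assigned to the cytosol and *vars-1* to mitochondria. Many other descriptions name no compartment either, and for those genes the assignment follows the number. *cars-2* is annotated as a pseudogene. By this assignment, used from here on, there were 20 cytosolic genes, 1 for each amino acid, 12 mitochondrial genes and 1 pseudogene. Glycine, histidine, lysine, methionine, glutamine, threonine and tryptophan had a single gene among these symbols, and in humans 1 gene is known to make the glycyl-tRNA and lysyl-tRNA synthetases of both compartments. These single genes were counted as cytosolic, also in the sums below. Whether any of them serves mitochondria as well was not tested.

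The recovered depth was 21434437 to 28805205 reads per library (median 24483360) in the main table and 22586580 to 33412986 (median 28780416) in the *sod-2* table. Levels are given as normalized CPM, the reads of a gene as a share of the library's reads, scaled between libraries by the authors. The mutated gene was lower in *clk-1*, *sod-1*, *prdx-2* and *sod-2* worms, with log2 fold changes of -1.12, -5.09, -3.09 and -6.85. It was not lower in *daf-2*, *nuo-6* and *isp-1* worms, whose alleles change the protein. In the libraries labelled *ctl-1* it was 2.38 ± 0.541 (SD, n = 3) against 2.29 ± 0.411 (SD, n = 6) normalized CPM in wild-type worms, so the label was not borne out by this gene and these worms are called by their label throughout. Of the libraries, *nuo-6* replicate 3 and *sod-2* replicate 5 stood apart within their groups, with summed cytosolic synthetase levels of 2986 and 3832 normalized CPM where the other libraries of those groups had at least 3833 and 5028. The results that rest on *nuo-6* replicate 3 are therefore also given without it.

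In wild-type worms every cytosolic gene had more mRNA per length than every mitochondrial gene. Levels per kilobase of exon ranged from 55.9 (*hars-1*) to 216 (*kars-1*) normalized CPM in the cytosolic set, with a median of 97.2. They ranged from 11.1 (*aars-1*) to 40.1 (*fars-2*) in the mitochondrial set, with a median of 19.4. The order was led by *kars-1* (lysine), *dars-1* (aspartate), *sars-1* (serine) and *tars-1* (threonine), and the last 2 of these, both at 147 per kilobase, did not differ beyond their spread. At the border of the sets, *hars-1* at 55.9 ± 2.16 (SD, n = 6) and *fars-2* (the mitochondrial phenylalanine enzyme) at 40.1 ± 1.99 (SD, n = 6) were further apart than their spread. The pseudogene *cars-2* was lowest, at 2.34 per kilobase.

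**Figure D1:**
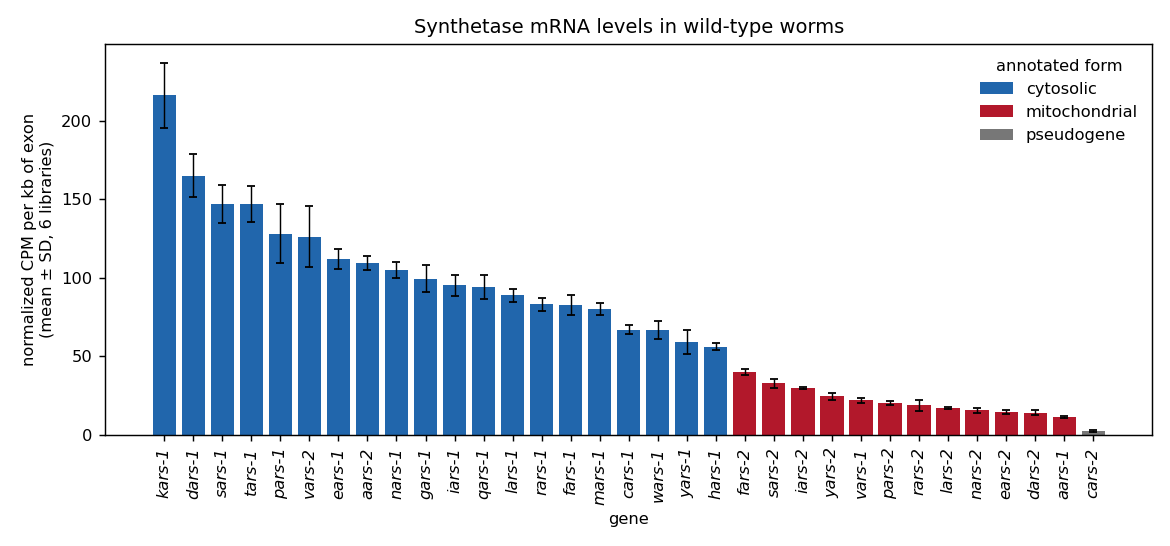
Mean level of each of the 33 genes in wild-type worms, in normalized CPM per kilobase of exon, with bars of 1 SD over 6 libraries. All 20 cytosolic genes (blue, 55.9 to 216) stand above all 12 mitochondrial genes (red, 11.1 to 40.1), and the pseudogene *cars-2* (grey) is at 2.34.

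The first comparison asked how these genes differ from wild type when complex III is mutated. In *isp-1* worms the cytosolic synthetases were downregulated and some mitochondrial ones upregulated. Called here means a Benjamini-Hochberg adjusted p below 0.05 in limma, adjusted over all genes of the table. By that rule 14 of the 20 cytosolic genes fell and none rose, and 5 of the 12 mitochondrial genes rose and none fell. The pseudogene *cars-2* rose as well. Among all genes, 10.3% were called down, 21.3% were called in either direction and 1542 of 14033 were called up. The median log2 fold change was -0.29 over the cytosolic and 0.26 over the mitochondrial genes. In 13 cytosolic genes all 6 *isp-1* libraries lay below all wild-type libraries, which held for 6.19% of all genes.

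The lowest *isp-1* level relative to wild type was that of *vars-2*, the cytosolic valine enzyme (WBGene00006936, chromosome I, 13548074 to 13559361 on the minus strand of WBcel235). Its wild-type libraries ran from 349 to 507 (median 488) and its *isp-1* libraries from 249 to 282 (median 255) normalized CPM. The groups did not overlap, although wild-type replicates 7 and 12, at 375 and 349, were well below the other wild-type libraries. The log2 fold change was -0.78 ± 0.10 (SE; 0.58-fold, limma adjusted p = 2.5e-07). *kars-1* (WBGene00002238, chromosome II), the lysine enzyme, ran from 360 to 479 (median 459) in wild-type and from 290 to 350 (median 326) in *isp-1* worms. Wild-type replicate 12 was its lowest wild-type library, with the next at 457, and the groups still did not overlap (log2 fold change -0.46 ± 0.10 SE, limma adjusted p = 0.00161). *gars-1*, the glycine enzyme, was at 214 to 268 (median 233) in wild-type and 161 to 191 (median 175) in *isp-1* libraries. All 6 *isp-1* libraries were lower (log2 fold change -0.42 ± 0.10 SE, limma adjusted p = 0.00217). The cytosolic genes not called were *aars-2*, *cars-1*, *iars-1*, *lars-1*, *pars-1* and *sars-1*. Of these only *lars-1* was higher than in wild-type worms (log2 fold change 0.15). In *aars-2* and *cars-1* all 6 *isp-1* libraries lay below all wild-type libraries. At an unadjusted p below 0.05 in limma, 18 of the 20 cytosolic genes were lower. The share of all genes below that unadjusted p was not determined, here or in the other comparisons.

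Of the mitochondrial genes called in *isp-1* worms, *ears-2*, the glutamate enzyme, had wild-type libraries at 21.2 to 26.9 (median 22.6) and *isp-1* libraries at 28.5 to 33.2 (median 29.8) normalized CPM. Every *isp-1* library was above every wild-type library, and the log2 fold change was 0.39 ± 0.12 (SE; 1.31-fold, limma adjusted p = 0.0193). *dars-2*, the aspartate enzyme, was at 21.8 to 29.7 (median 27.2) in wild-type and 30.5 to 37.3 (median 32.7) in *isp-1* libraries (log2 fold change 0.32 ± 0.10 SE, limma adjusted p = 0.0174). *sars-2*, *vars-1* and *yars-2*, the serine, valine and tyrosine enzymes, also rose, by 0.26 to 0.28 on the log2 scale. These rises were small, and leaving out single libraries left 2 to 5 of the 5 mitochondrial calls: 2 without wild-type replicate 9 or without *isp-1* replicate 6, and 3 without wild-type replicate 8 or 10 or *isp-1* replicate 3, 4 or 5. The 20 calls over all 33 genes became 13 without wild-type replicate 9.

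*cars-2* was the gene with the highest relative rise. It was at 2.74 to 4.52 (median 4.36) normalized CPM in wild-type and at 8.33 to 9.90 (median 9.49) in *isp-1* libraries. The groups did not overlap, and the log2 fold change was 1.12 ± 0.14 (SE; 2.17-fold, limma adjusted p = 1.7e-07). It lies next to *cars-1* on chromosome I (2629685 to 2632320 and 2623099 to 2628577), the functional cysteine enzyme, and the counting method used by the study, STAR's GeneCounts, counts only reads that map to a single place, so reads matching both copies were left out. *cars-1* itself was not called in *isp-1* worms, with a log2 fold change of -0.17.

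**Figure D2:**
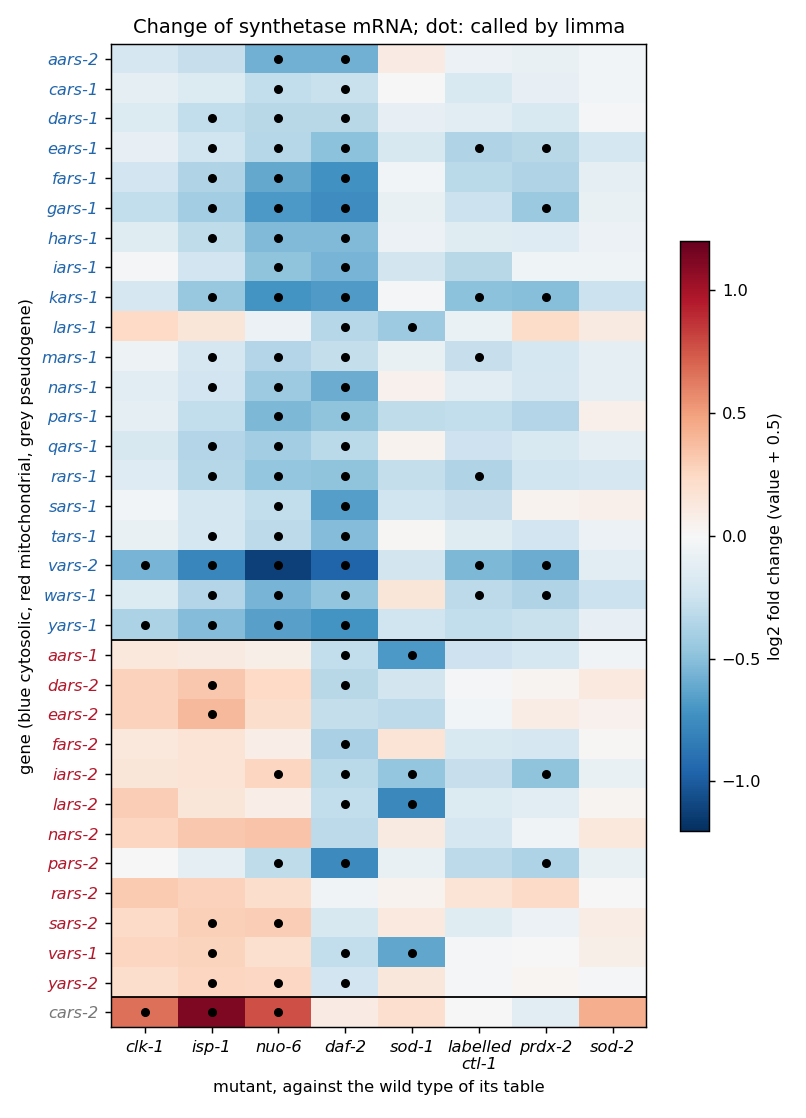
Log2 fold change of each gene (rows) in each mutant (columns) against the wild type of its table, blue for lower and red for higher, with a dot where limma called the gene. The cytosolic block is blue in *daf-2*, *nuo-6* and *isp-1* worms (20, 19 and 14 of 20 called down), the mitochondrial block is mostly pale red in *nuo-6*, *isp-1* and *clk-1* worms (3, 5 and 0 of 12 called up) and blue in *daf-2* worms (8 of 12 called down).

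In *nuo-6* worms, with a complex I mutation, 19 of the 20 cytosolic genes fell and none rose, and *lars-1* was the gene not called. Of the mitochondrial genes 3 rose (*iars-2*, *sars-2* and *yars-2*) and 1 fell (*pars-2*, the proline enzyme, log2 fold change -0.31). Among all genes 22.5% were called up and 36.4% in either direction, so that the rate of upward calls among the mitochondrial genes was near that of all genes. The median log2 fold change was -0.47 over the cytosolic and 0.21 over the mitochondrial genes, and in 16 cytosolic genes all *nuo-6* libraries lay below all wild-type libraries (5.13% of all genes). Without *nuo-6* replicate 3, 18 cytosolic genes still fell, 7 mitochondrial genes rose and none fell. The 3 mitochondrial rises became 2 without wild-type replicate 9 or 10 or *nuo-6* replicate 4 or 5.

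*vars-2* had its lowest group median in *nuo-6* worms. The *nuo-6* libraries were at 156 to 244 (median 210) normalized CPM against 349 to 507 in wild-type worms, and the log2 fold change was -1.12 ± 0.10 (SE; 0.46-fold, limma adjusted p = 6e-11). *kars-1* was at 202 to 315 (median 278) in *nuo-6* libraries, all below the lowest wild-type library at 360 (log2 fold change -0.72 ± 0.10 SE, limma adjusted p = 1.3e-06). *gars-1* was at 117 to 163 (median 151), all below 214 (log2 fold change -0.69 ± 0.10 SE, limma adjusted p = 1.1e-06). In all 3 genes *nuo-6* replicate 3 was the lowest library of the group. Without it the log2 fold changes were -1.04, -0.64 and -0.63, all still called. *yars-1* (tyrosine) and *fars-1* (the alpha subunit of the phenylalanine enzyme) followed, with log2 fold changes of -0.65 and -0.61. *cars-2* was at 6.15 to 9.48 (median 6.94) normalized CPM, above every wild-type library (log2 fold change 0.77 ± 0.14 SE, limma adjusted p = 3.2e-05).

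Germline markers were lower most clearly in *nuo-6* worms. Of 9 genes of the germline list, 6 fell in *nuo-6* worms (median log2 fold change -0.61), 1 fell in *isp-1* worms (-0.13) and 3 fell in *daf-2* worms (-0.30). Among all genes 1959 of 14033, 10.3% and 16.3% were called down in these strains, so the *isp-1* count was near that of all genes. The median of the list was -0.007 in *prdx-2* worms and 0.066 in the libraries labelled *ctl-1*. The summed level of the list was 1260 to 1740 normalized CPM in *nuo-6* libraries and 2010 to 2850 in wild-type libraries, and those groups did not overlap. It was 1730 to 2270 in *isp-1* and 1800 to 2160 in *daf-2* libraries, and none of its genes was at 0 in any group. In *isp-1* worms 4 of 7 sperm markers fell (summed level 125 to 199 against 159 to 324). The part of these tissues in the synthetase levels was not tested, and in whole-worm libraries fewer cells of a type and less RNA per cell cannot be told apart.

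In *clk-1* worms, which make little ubiquinone, few of these genes passed the test. The cytosolic genes *vars-2* and *yars-1* fell, no mitochondrial gene was called by limma, and the pseudogene *cars-2* rose, against 8.27% of all genes called in either direction and 2.27% called down. On the recovered reads edgeR called 1 of the 33 genes up and 2 down, and DESeq2 1 up and 3 down. At an unadjusted p below 0.05, 7 of the 12 mitochondrial genes were higher and none lower, and 8 cytosolic genes were lower and 1 higher. These counts have no share of all genes to be set against. *vars-2* was at 275 to 334 (median 297) normalized CPM, below every wild-type library (log2 fold change -0.56 ± 0.10 SE, 0.68-fold, limma adjusted p = 0.000138). *cars-2* was at 5.57 to 8.30 (median 6.69), above every wild-type library (log2 fold change 0.66 ± 0.14 SE, limma adjusted p = 0.00113). The median log2 fold change was -0.15 over the cytosolic and 0.24 over the mitochondrial genes.

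Direct contrasts asked whether the 3 mitochondrial mutants differ from each other. Between *isp-1* and *clk-1* worms limma called none of the 33 genes (3.24% of all genes), with 7 at an unadjusted p below 0.05, and edgeR called none. Between *nuo-6* and *clk-1* worms 16 cytosolic genes and *pars-2* were lower in *nuo-6* and none higher (7.26% of all genes called lower), led by *vars-2* (-0.56), *kars-1* (-0.52) and *iars-1* (isoleucine, -0.47) on the log2 scale. This count of 17 became 10 without *nuo-6* replicate 3, and also 10 with only these strains in the fit. Between *nuo-6* and *isp-1* worms *vars-2* (-0.34), *hars-1* (histidine, -0.23) and *wars-1* (tryptophan, -0.20) were lower in *nuo-6* (4.97% of all genes called lower). Those 3 calls rested on single libraries. They became 0 without *nuo-6* replicate 3, 1 without *nuo-6* replicate 4, *isp-1* replicate 2 or *isp-1* replicate 6, 5 without *nuo-6* replicate 2 or *isp-1* replicate 3, and 6 without *nuo-6* replicate 6.

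In *daf-2* worms synthetase genes of both compartments were downregulated. All 20 cytosolic and 8 of the 12 mitochondrial genes fell and none rose, against 16.3% of all genes called down and 17.4% up. The median log2 fold change was -0.53 over the cytosolic and -0.30 over the mitochondrial genes, and in 25 of the 33 genes all *daf-2* libraries were below all wild-type libraries (6.78% of all genes). *vars-2* was at 193 to 269 (median 236) normalized CPM against 349 to 507 in the wild type (log2 fold change -0.96 ± 0.10 SE, 0.51-fold, limma adjusted p = 1.4e-09). *pars-2* had the largest fall among the mitochondrial genes, from 28.7 to 33.8 (median 31.2) in wild-type to 15.4 to 21.7 (median 17.9) in *daf-2* libraries. Its groups did not overlap, and the log2 fold change was -0.77 ± 0.10 (SE; 0.59-fold, limma adjusted p = 1.3e-07). *gars-1* was at 106 to 173 (median 152), all below 214 in the wild type (log2 fold change -0.74 ± 0.10 SE, limma adjusted p = 3.2e-07). The mitochondrial genes not called were *ears-2*, *nars-2*, *rars-2* and *sars-2*, with log2 fold changes of -0.32 to -0.04. *pars-2* overlaps another gene on the same strand by 153 bases of exon, and GeneCounts sets aside reads that overlap more than 1 gene.

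The contrast of *daf-2* with *nuo-6* worms tested whether these strains differ. Of the mitochondrial genes 11 of 12 were lower in *daf-2* worms (all except *rars-2*, the arginine enzyme), against 18.4% of all genes called lower. Of the cytosolic genes only *lars-1*, *sars-1* and *tars-1* were lower, and no gene was higher. The median log2 difference was -0.48 over the mitochondrial and -0.01 over the cytosolic genes. *iars-2* was the clearest, at 77.8 to 90.3 (median 86.8) normalized CPM in *daf-2* libraries and at a median of 135 and a highest level of 139 in *nuo-6* libraries (log2 difference -0.58 ± 0.08 SE, limma adjusted p = 2.7e-07). Its groups did not overlap. With only these strains in the fit, a choice made after seeing the data, the 15 calls over the 33 genes became 9. The 3 cytosolic calls became 5 without *nuo-6* replicate 3, and 2 without *nuo-6* replicate 2 or 6 or *daf-2* replicate 3.

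**Figure D3:**
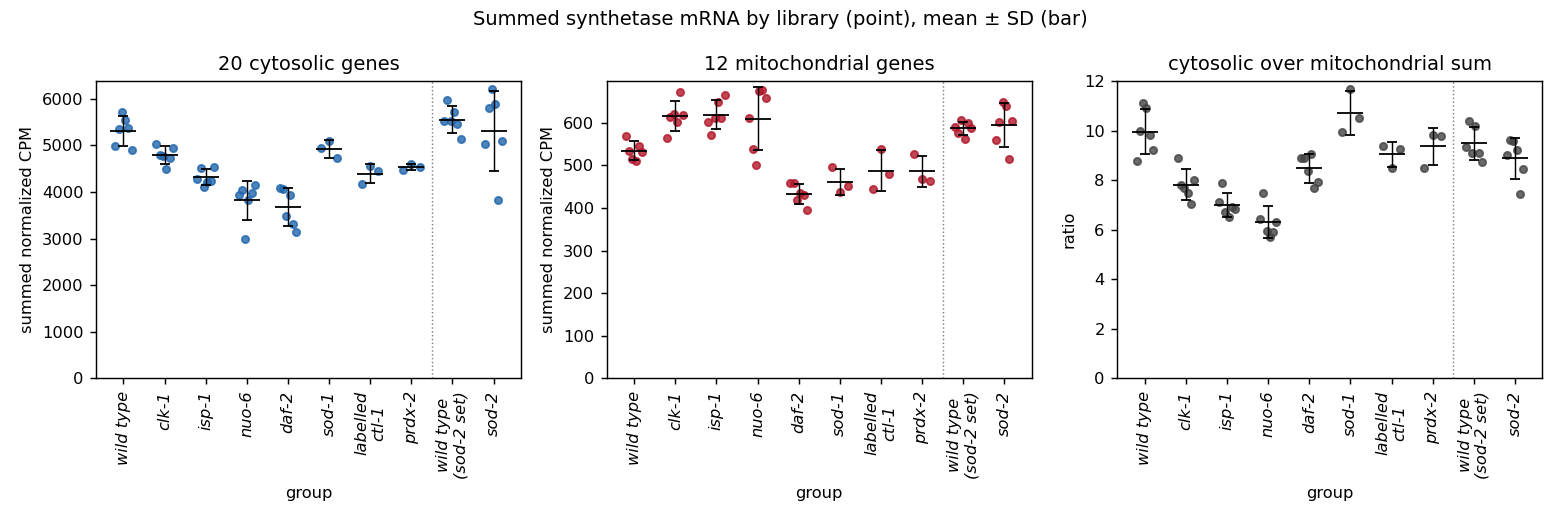
Summed normalized CPM of the 20 cytosolic genes (left), of the 12 mitochondrial genes (middle) and their ratio (right) in each library, with the mean and 1 SD per group; the dotted line parts the main table from the *sod-2* table. Wild-type cytosolic sums of 4893 to 5726 stand above all *daf-2*, *nuo-6*, *isp-1* and *prdx-2* libraries and those labelled *ctl-1*. The mitochondrial sums of *daf-2* (396 to 458) and *sod-1* libraries (437 to 496) lie below the wild-type range of 511 to 570.

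The cytosolic sum was 5313 ± 320 (SD, n = 6) normalized CPM in wild-type worms, 4796 ± 184 in *clk-1*, 4315 ± 171 in *isp-1*, 3822 ± 422 in *nuo-6* and 3672 ± 410 in *daf-2* worms (SD, n = 6 each). The mitochondrial sum was 535 ± 21.9 in wild-type worms, 616 ± 34.8 in *clk-1*, 619 ± 34.0 in *isp-1*, 610 ± 74.2 in *nuo-6* and 433 ± 24.0 in *daf-2* worms (SD, n = 6 each). In *nuo-6* worms replicate 3, at 502, was below the wild-type range of 511 to 570 and replicate 2, at 539, was inside it. The cytosolic sum was 4469 to 4595 in *prdx-2* and 4172 to 4564 in *ctl-1* worms (n = 3 each), below all wild-type libraries. In *sod-1* worms (n = 3) it was 4726 to 5097, overlapping with wild type. Their mitochondrial sum, 437 to 496, was below all wild-type libraries. The cytosolic sum was 9.96 times the mitochondrial sum in wild-type worms (8.76 to 11.1 over the libraries), 7.81 times in *clk-1* (7.03 to 8.89), 6.99 times in *isp-1* (6.50 to 7.89), 6.29 times in *nuo-6* (5.69 to 7.49) and 8.47 times in *daf-2* worms (7.69 to 9.04). The ratio of every *isp-1* and *nuo-6* library lay below that of every wild-type library, and in *clk-1* and *daf-2* worms the ranges overlapped with wild type.

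Taking each amino acid on its own, 12 had a cytosolic and a mitochondrial gene. The mean ratio of cytosolic to mitochondrial level was lower than in wild-type worms for all 12 amino acids in *nuo-6*, *isp-1* and *clk-1* worms and for 10 in *daf-2* worms. For leucine in *isp-1* worms the log2 difference was only -0.002. The mean ratio was also lower for 8 in *ctl-1*, 8 in *sod-2*, 7 in *prdx-2* and 6 in *sod-1* worms. All libraries of the mutant lay below all wild-type libraries for 8 amino acids in *nuo-6*, 7 in *isp-1*, 2 in *clk-1* and 2 in *daf-2* worms. That also held for 3 in *prdx-2* and 1 in *ctl-1* worms, with 3 libraries each, and for 0 in *sod-1* and *sod-2* worms. All lay above for 2 amino acids each in *sod-1* and *prdx-2* worms. The share of other gene pairs that separate in this way was not determined. The ratio of valine was furthest below wild type in *nuo-6* worms, with *vars-2* over *vars-1* at a log2 ratio of 2.72 ± 0.30 (SD, n = 6) in wild-type and 1.40 ± 0.10 (SD, n = 6) in *nuo-6* worms. Leucine was at the other end, with *lars-1* over *lars-2* at 2.86 ± 0.05 in wild-type and 2.71 ± 0.24 in *nuo-6* worms (SD, n = 6 each), ranges that overlapped.

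**Figure D4:**
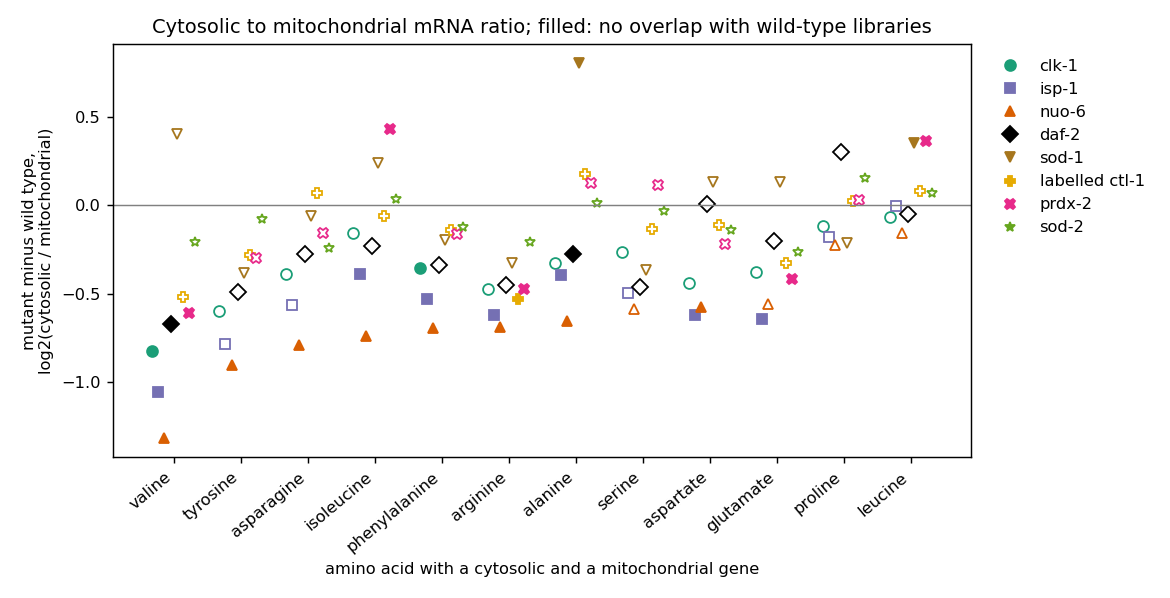
Mean log2 ratio of the cytosolic to the mitochondrial gene of each amino acid in each mutant minus that in its wild type, ordered by the *nuo-6* value; filled symbols mark mutants whose libraries all lie outside the wild-type range. All *nuo-6* values are below 0, from -1.32 for valine to -0.15 for leucine, whereas *daf-2*, *sod-1*, *ctl-1*, *prdx-2* and *sod-2* worms have values on both sides.

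Of the leucine enzymes, *lars-1* was higher in *clk-1* and *isp-1* worms, where the median of the cytosolic set was lower (-0.15 and -0.29). *lars-2*, the synthetase known from lifespan screens, changed in the direction of the mitochondrial set. Its log2 fold change was near the set median in *daf-2* (-0.29 and -0.30) and *clk-1* worms (0.30 and 0.24). It was smaller than that median in *nuo-6* (0.08 and 0.21) and *isp-1* worms (0.15 and 0.26). *lars-1*, cytosolic, was at 314 to 350 (median 329) normalized CPM in wild-type libraries. The *clk-1* libraries were at 358 to 416 (median 394), with a log2 fold change of 0.24 ± 0.09 (SE) that was not called (limma adjusted p = 0.113). The *isp-1* libraries were at 337 to 404 (median 361) and the *nuo-6* libraries at 266 to 366 (median 311), with log2 fold changes of 0.15 ± 0.09 and -0.07 ± 0.09 (SE), not called either (limma adjusted p = 0.268 and 0.559). All 6 *clk-1* libraries were above all wild-type libraries. It fell in *daf-2* worms, to 223 to 276 (median 267), without overlap (log2 fold change -0.34 ± 0.09 SE, limma adjusted p = 0.00371).

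*lars-2*, mitochondrial, was at 42.7 to 47.9 (median 46.0) normalized CPM in wild-type libraries. The *clk-1* libraries were again all higher, at 50.9 to 61.9 (median 56.0), yet the gene was not called (log2 fold change 0.30 ± 0.10 SE, limma adjusted p = 0.0583). It was at 46.7 to 58.1 (median 49.2) in *isp-1* libraries (0.15 ± 0.10 SE, limma adjusted p = 0.318) and 40.7 to 57.5 (median 48.4) in *nuo-6* libraries (0.08 ± 0.10 SE, limma adjusted p = 0.568), ranges that overlapped with wild type. It fell in *daf-2* worms, to 35.7 to 38.3 (median 37.2), without overlap (log2 fold change -0.29 ± 0.10 SE, limma adjusted p = 0.0229). With only *clk-1* and wild-type libraries in the fit, *lars-1* and *lars-2* were called up in *clk-1* worms and the count of genes called rose from 3 to 8 (4 up, 4 down).

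**Figure D5:**
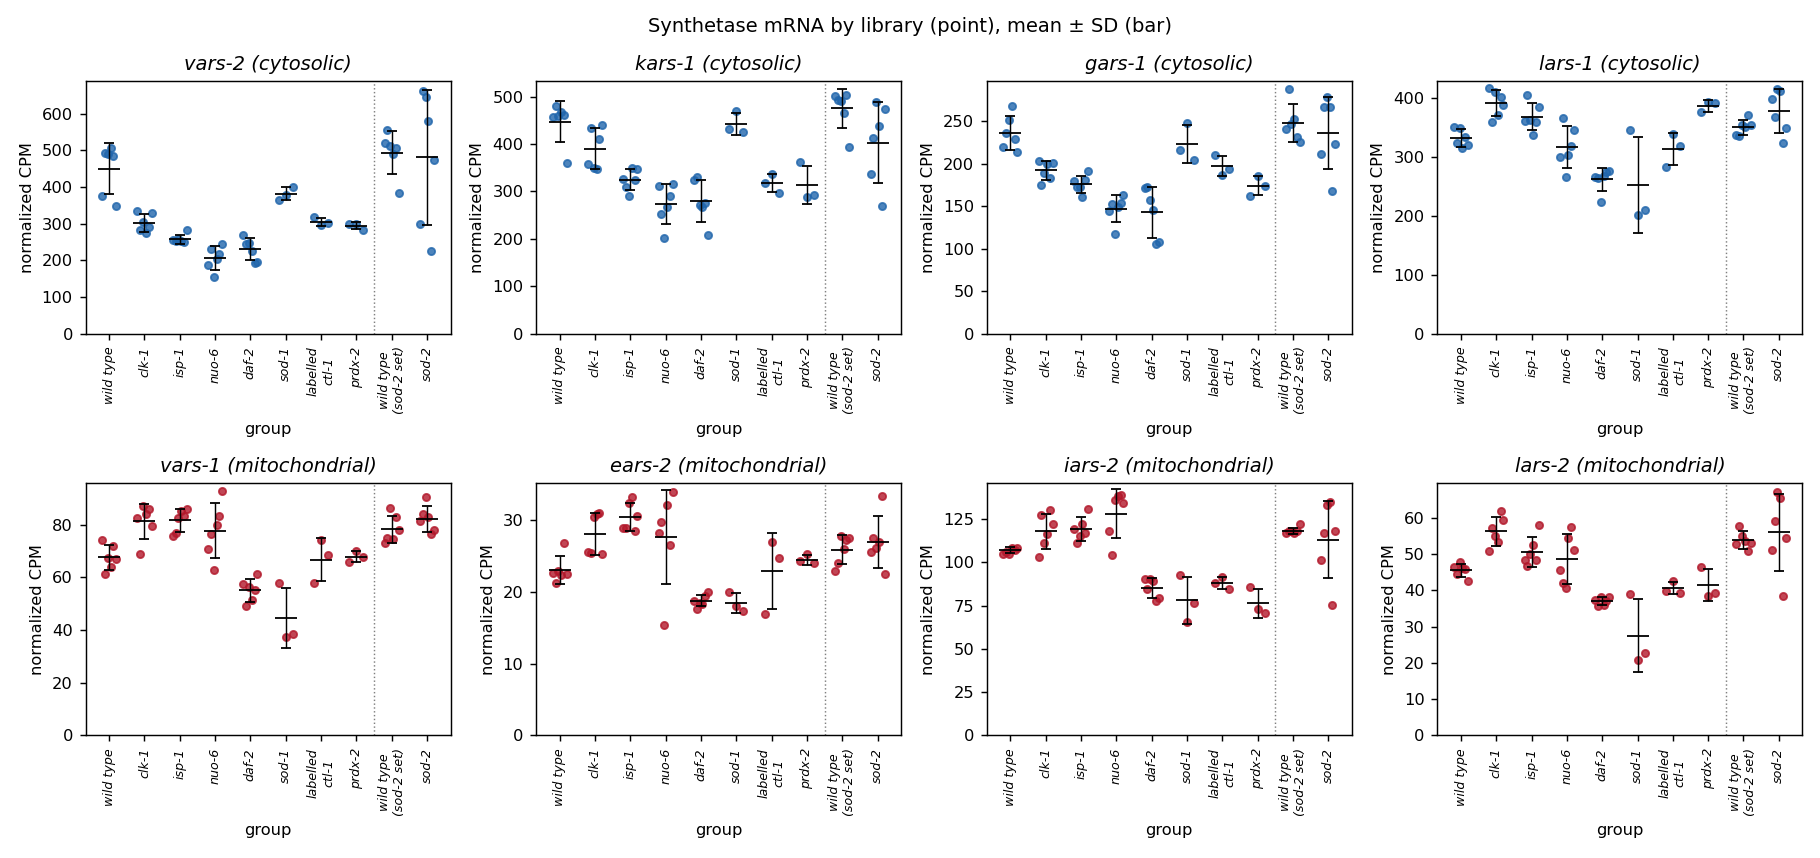
Normalized CPM of 4 cytosolic (top, blue) and 4 mitochondrial genes (bottom, red) in every library, with the mean and 1 SD per group; the dotted line parts the main table from the *sod-2* table. *vars-2* is at 349 to 507 in wild-type and 156 to 244 in *nuo-6* libraries, *lars-1* overlaps between them, and *lars-2* is at 20.7 and 22.7 in 2 of 3 *sod-1* libraries.

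In *sod-1* worms the genes that fell were mainly mitochondrial. They were *lars-2*, *aars-1*, *vars-1* and *iars-2*, with *lars-1* from the cytosolic set, and no gene rose (1.96% of all genes called down, 0.606% up). *lars-2* was at 39.1, 20.7 and 22.7 normalized CPM in the 3 *sod-1* libraries against 42.7 to 47.9 in the wild type (log2 fold change -0.78 ± 0.12 SE, 0.58-fold, limma adjusted p = 0.000135). *vars-1* was at 57.9, 37.4 and 38.7 against 61.4 to 74.2 (median 67.3) (log2 fold change -0.62 ± 0.11 SE, limma adjusted p = 0.000888). *iars-2* was at 92.4, 65.4 and 76.4 against 105 to 108 (median 106) (log2 fold change -0.46 ± 0.10 SE, limma adjusted p = 0.00371). In each of them *sod-1* replicate 1 was the highest of the 3 libraries, yet still below the wild-type range.

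*lars-1* had the same pattern, at 346, 202 and 210 normalized CPM, with replicate 1 inside the wild-type range (log2 fold change -0.44 ± 0.11 SE, limma adjusted p = 0.0249). *aars-1*, the mitochondrial alanine enzyme, was at 31.5, 14.6 and 18.1 against 31.4 to 34.8. The 5 calls became 1 without *sod-1* replicate 2 and 3 without *sod-1* replicate 3, and none was made with only *sod-1* and wild-type libraries in the fit. The mitochondrial genes not called included *yars-2* and *fars-2*, with log2 fold changes of 0.14 and 0.16.

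In *prdx-2* worms 5 cytosolic and 2 mitochondrial genes fell and none rose (6.51% of all genes called down and 6.51% up). *vars-2* was at 299, 299 and 283 normalized CPM, all below the wild-type range of 349 to 507 (log2 fold change -0.60 ± 0.12 SE, 0.66-fold, limma adjusted p = 0.0009). *iars-2*, mitochondrial, was at 85.8, 72.7 and 70.4, below 105 to 108 in the wild type (log2 fold change -0.48 ± 0.10 SE, limma adjusted p = 0.000695). *gars-1* was at 162, 185 and 174, below 214 to 268 (log2 fold change -0.44 ± 0.12 SE, limma adjusted p = 0.013). The others were *kars-1*, *wars-1*, *ears-1* (glutamate) and *pars-2*. *lars-1* was at 375, 393 and 391, above every wild-type library, but was not called (0.22 ± 0.11 SE, limma adjusted p = 0.206), and *lars-2* was at 46.5, 38.5 and 39.4 (-0.14 ± 0.12 SE, limma adjusted p = 0.487). The 7 calls became 4 without *prdx-2* replicate 1, and 4 of 5 muscle markers fell in these worms too (summed level 8430 to 9010 against 9700 to 16900 in wild-type libraries). The summed level of 5 intestine markers, of which 1 fell, was 750 to 852 in *prdx-2* and 1220 to 2380 in wild-type libraries, and that of 6 neuron markers, none called, was 404 to 418 against 283 to 402. The median log2 fold change of the single genes was only -0.089 for intestine and -0.072 for neurons. For neurons the sum and the median thus went opposite ways. The part of these tissues was not tested.

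In the libraries labelled *ctl-1*, 6 cytosolic genes fell and none rose (1.57% of all genes called down, 1.05% up): *vars-2*, *kars-1*, *ears-1*, *rars-1* (arginine), *wars-1* and *mars-1* (methionine). No mitochondrial gene was called by limma, with 2 lower at an unadjusted p below 0.05. *vars-2* was at 318, 298 and 302 normalized CPM (log2 fold change -0.54 ± 0.12 SE, limma adjusted p = 0.00754), all below wild type. *kars-1* was at 318, 336 and 297 (-0.49 ± 0.13 SE, limma adjusted p = 0.0263) and *ears-1* at 287, 320 and 318 against 367 to 434 in wild-type worms (-0.36 ± 0.09 SE, limma adjusted p = 0.0213). *lars-1* was at 283, 338 and 319 (-0.08 ± 0.11 SE, limma adjusted p = 0.785) and *lars-2* at 39.8, 42.6 and 39.4 (-0.17 ± 0.12 SE, limma adjusted p = 0.579). The calls depended on single libraries. They became 0 without *ctl-1* replicate 3, 1 without *ctl-1* replicate 1, 2 without *ctl-1* replicate 2 or wild-type replicate 9 and 3 without wild-type replicate 10. With only *ctl-1* and wild-type libraries in the fit 1 call was left.

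In *sod-2* worms limma called none of the 33 genes (2.34% of all genes called up, 0.692% down). At an unadjusted p below 0.05 there were 3, 1 higher and 2 lower, and edgeR and DESeq2 on the recovered reads also called none. Leaving out any single library, *sod-2* replicate 5 included, gave no call either. The median log2 fold change was -0.10 over the cytosolic and 0.02 over the mitochondrial genes. *vars-2* varied widely, at 227 to 662 (median 527) normalized CPM in *sod-2* and 384 to 555 (median 509) in wild-type libraries. *lars-1* was at 323 to 415 (median 383) against 335 to 370 (0.10 ± 0.08 SE, limma adjusted p = 0.509) and *lars-2* at 38.4 to 67.2 (median 56.8) against 50.8 to 57.8 (0.03 ± 0.12 SE, limma adjusted p = 0.891). The summed cytosolic level was 3832 to 6223 in *sod-2* and 5144 to 5984 in wild-type libraries, ranges that overlapped.

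Synthetase genes outside the symbol pattern were few. *fars-3*, the beta subunit of the cytosolic phenylalanine enzyme, was at 160 to 198 (median 174) normalized CPM in wild-type worms and fell in *isp-1* (-0.47 ± 0.09 SE), *nuo-6* (-0.69 ± 0.09), *daf-2* (-0.54 ± 0.09) and *prdx-2* worms (-0.39 ± 0.11), by log2 fold change in limma (adjusted p = 0.000324, 3.8e-07, 1.9e-05 and 0.0194). Its partner subunit *fars-1* had -0.36, -0.61, -0.73 and -0.37 in the same strains and was not called in *prdx-2* worms. *Y105E8A.20*, described in the files as the mitochondrial methionine enzyme, fell in *daf-2* worms (-0.49 ± 0.06 SE, limma adjusted p = 2.2e-07). *prx-10*, described there as the mitochondrial tryptophan enzyme although its symbol names a peroxin, rose in *clk-1* worms (0.37 ± 0.11 SE, limma adjusted p = 0.0264), and whether its reads come from a synthetase or a peroxin transcript is uncertain. The last 2 genes were found by their descriptions after the values had been seen.

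Among the genes that work beside the synthetases, nearly all calls of cytosolic translation factors were falls. Of 33 measured, 14 fell and none rose in *isp-1*, 17 fell and 1 rose in *nuo-6*, 21 fell and 1 rose in *daf-2* and 10 fell and none rose in *prdx-2* worms. Of all 14033 genes, 1451 fell in *isp-1*, 1959 in *nuo-6*, 2287 in *daf-2* and 914 in *prdx-2* worms. *eif-3.J*, a subunit of the initiation factor eIF3, fell by 0.56 in *isp-1*, 0.77 in *nuo-6*, 0.85 in *daf-2*, 0.58 in *prdx-2* and 0.39 in *clk-1* worms on the log2 scale. In *clk-1* worms 5 fell in all, *eif-1.A* among them, against 2.27% of all genes called down. None of the 33 was called in *sod-1* or *ctl-1* worms by limma (median log2 fold changes 0.06 and -0.26). Of all genes 1.96% and 1.57% were called down there. In *sod-2* worms 1 fell (*iff-1*, an eIF5A gene), against 0.692% of all genes called down.

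Of 5 mitochondrial translation factors measured, 4 rose in *nuo-6*, 3 in *isp-1* and 2 in *clk-1* worms, and 4 fell in *daf-2* worms. Of all genes 22.5% rose in *nuo-6* and 16.3% fell in *daf-2* worms, and 1542 of 14033 rose in *isp-1* and 842 in *clk-1* worms. *tsfm-1*, the mitochondrial elongation factor Ts, was at 124 ± 41.1 normalized CPM in *nuo-6*, 95.8 ± 18.8 in *isp-1*, 81.3 ± 15.5 in *clk-1* and 33.6 ± 7.73 in *daf-2* worms, with wild-type worms at 51.5 ± 4.87 (SD, n = 6 each). *gfm-1*, the mitochondrial elongation factor G, had log2 fold changes of 0.82, 0.52, 0.48 and -0.46 in the same strains. Both genes were called in all 4 strains. In *sod-2* worms *mrrf-1*, the ribosome recycling factor of mitochondria, rose (log2 fold change 0.85, limma adjusted p = 0.0347).

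Of 17 genes of tRNA maturation and export measured, 11 fell and 3 rose in *nuo-6* and 12 fell and none rose in *daf-2* worms, against 1959 of 14033 and 16.3% of all genes falling. The calls went both ways in *isp-1* (3 up, 4 down) and *clk-1* worms (2 up, 1 down). Of all genes 21.3% and 8.27% were called in either direction in these strains. The Elongator subunits *elpc-1* and *elpc-2*, which modify the wobble base of tRNAs, fell by 0.90 and 0.91 in *nuo-6* worms, and *mttu-1*, a mitochondrial tRNA-modifying enzyme, rose by 0.83 on the log2 scale. *xpo-3*, the tRNA exporter, fell in *nuo-6* (-0.71), *daf-2* (-0.56), *isp-1* (-0.38) and *clk-1* worms (-0.31), values on the log2 scale.

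Of a list around ATF-4 and the kinase GCN-2, a sensor of uncharged tRNA, 7 genes were measured. The list was broader than the sensors of uncharged tRNA, and *zip-2* is not one of them. In *nuo-6* worms 1 rose and 3 fell, and in *daf-2* worms 1 rose and 1 fell. Of all genes 36.4% and 33.7% were called in either direction in these strains, so the *daf-2* count was near that background. *zip-2*, a bZIP transcription factor, rose in *nuo-6* (log2 fold change 0.75, limma adjusted p = 0.0116) and *daf-2* worms (0.67, limma adjusted p = 0.0269). Its *nuo-6* libraries varied widely, at 455 ± 287 normalized CPM against 244 ± 69.2 in wild-type worms (SD, n = 6 each). *gcn-1*, the activator of the kinase GCN-2, fell in *nuo-6* worms (log2 fold change -0.63, limma adjusted p = 4.2e-05). *abcf-3* fell by 0.31 in *isp-1*, 0.35 in *nuo-6*, 0.37 in *daf-2* and 0.33 in *sod-1* worms. Of 20 genes of amino acid synthesis measured, 7 rose and 4 fell in *nuo-6* and 4 rose and 3 fell in *daf-2* worms. With 33.7% of all genes called in *daf-2* worms and 36.4% in *nuo-6* worms, the 7 calls in *daf-2* worms were near that background. *asns-2*, an asparagine synthetase, which makes the free amino acid, rose in *daf-2* worms from 52.8 ± 26.5 to 420 ± 191 normalized CPM (SD, n = 6 each; log2 fold change 2.98, limma adjusted p = 2.8e-08) and in *nuo-6* worms by 1.11 on the log2 scale. The other asparagine synthetase of the list, *asns-1*, fell in *nuo-6* worms (log2 fold change -1.02, limma adjusted p = 0.0196). *cth-1*, a cystathionine gamma-lyase, fell by 3.50 on that scale in *nuo-6* worms. Its level was 15.8 ± 4.62 normalized CPM there and varied widely in wild-type worms, at 218 ± 124 (SD, n = 6 each).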

How the data were processed

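Reads were mapped by the authors with STAR 2.5.2b (WBcel235), assigned to genes of Ensembl build 89 and normalized in edgeR 3.20.1. Of the deposited tables, 2 hold a signal the authors computed, CPM after TMM scaling and a filter on low genes whose rule is not given in the sources used here. Of the genes of each library 99.971% to 100% were whole multiples of 1 read (tolerance 0.05 read), so reads were recovered. The third deposited table, of the *sod-2* experiment, holds the count of reads per gene (16168 genes). As CPM had been assumed for it in the design, its counts were tested with edgeR. No per-sample column was left unused. Columns were matched to strains by name, and no replicate pair had identical reads.

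On the scale log2(value + 0.5), limma 3.58.1 under R 4.3.3 (moderated two-sided test with a mean-variance trend) compared each mutant with the wild type of its table, all groups of a table in 1 fit, with Benjamini-Hochberg adjustment over all genes and calls below 0.05. Fold changes are on that scale. The added 0.5 understates changes of low genes such as *cars-2*. Alternatives were edgeR 4.0.16 and DESeq2 1.42.0 on recovered reads, DESeq2 size factors, pseudocounts of 0.1 and 2, a mean of at least 1 normalized CPM, a false discovery rate below 0.01, fits of fewer groups, a replicate block and leaving out each library. The chain was tested on simulated data. Lengths and positions came from Ensembl release 115 (WBcel235), which held 13955 of 14033 and 14518 of 14596 gene IDs. The kit was stranded, but whether counting used strand is not given in the sources used here, and 12 of the 33 genes overlap exons of the other strand by at most 138 bases (*iars-2*). Sequences were not used here.

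Full statistics are given for at most 3 called genes with the largest increase and 3 with the largest decrease per mutant whose libraries all lie outside the wild-type range, and for *lars-1* and *lars-2*. Of other lists at most 3 called genes per comparison with the largest change and a mean of at least 1 are named. Other genes of the set are named by their call or log2 fold change, and *xpo-3* in *nuo-6* worms was added after its values were seen. The genes and lists were chosen with earlier results of these data known.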

Additional observations from a re-analysis of the deposited data

Results flagged for a closer look

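In groups of 6 libraries, a library was singled out when its gap to the nearest other library, as a share of the range of the group, passed Dixon's 95% critical value. Of 231 groups tested 22 did, and chance alone gives about 1 in 20. All values are normalized CPM.

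Of the 22, 6 came from *nuo-6* replicate 3, the lowest library for *cars-1* (124), *dars-1* (185), *iars-1* (152), *nars-1* (102), *pars-1* (129) and *rars-1* (124). Wild-type replicate 12 of the main table was lowest for *kars-1* (360) and *tars-1* (318), with the next at 457 and 369. Wild-type replicate 6 of the *sod-2* table was lowest for the same genes, *kars-1* (394) and *tars-1* (315), and highest for *iars-2* (122). *sod-2* replicate 5 was lowest for *aars-1* (26.0, next 37.0) and *mars-1* (180, next 241).

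The others were single libraries. They were *cars-2* in wild-type replicate 8 (2.74, lowest), *ears-2* in wild-type replicate 11 (26.9, highest), *hars-1* in *daf-2* replicate 2 (83.8, highest), *lars-1* in *daf-2* replicate 3 (223, lowest) and *mars-1* in *clk-1* replicate 4 (210, lowest). In *isp-1* worms *rars-2* was highest in replicate 4 (44.0), *sars-1* in replicate 2 (253) and *vars-2* in replicate 6 (282), and *yars-2* was highest in *clk-1* replicate 5 (48.8).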

How the results depend on the processing

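Counts here are of the 33 genes called. With only a mutant and its wild type in the fit there were 8 in *clk-1* worms (3 with all groups), 0 in *sod-1* (5) and 1 in *ctl-1* worms (6). A false discovery rate below 0.01 left 10 in *isp-1* (20 at 0.05), 1 in *ctl-1* (6) and 4 in *prdx-2* worms (7). Size factors from DESeq2 gave 3 in *ctl-1* worms and 7 between *nuo-6* and *isp-1* worms (3). The cause of these shifts was not tested. Leaving out each library in turn gave 2 to 4 calls in *clk-1*, 13 to 19 in *isp-1*, 22 to 26 in *nuo-6*, 26 to 29 in *daf-2*, 1 to 7 in *sod-1*, 0 to 6 in *ctl-1*, 4 to 9 in *prdx-2* and 0 to 0 in *sod-2* worms. Between mutants it gave 0 to 6 (*nuo-6* and *isp-1*), 10 to 18 (*nuo-6* and *clk-1*), 0 to 1 (*isp-1* and *clk-1*, the 1 without *clk-1* replicate 6) and 14 to 17 (*daf-2* and *nuo-6*).

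Replicate numbers did not pair the samples consistently. The correlation of same-numbered libraries ran from -0.14 to 0.73 between *sod-2* and wild-type worms, and from -0.63 to 0.43 between the compared mutants. Some libraries, *sod-2* replicate 2 among them, were closest to the library of the same number. With the numbers as a block and the compared mutants alone, 3 genes were called between *nuo-6* and *clk-1* worms and 5 between *daf-2* and *nuo-6* worms; without the block, a fit chosen after seeing the data, the same libraries gave 10 and 9, and 2 between *isp-1* and *clk-1* worms. The block gave 0 calls in *sod-2* worms. Of the values of single genes under other settings, 297 kept direction and call, 2 became called (*lars-1* and *lars-2* in *clk-1* worms) and 15 lost the call. Without 1 library, 404 kept both, 19 lost the call and 1 gained it. The log2 fold change of *lars-2* in *sod-2* worms, never called, turned to -0.0245 without *sod-2* replicate 3 and to -0.0171 without replicate 4, and ranged up to 0.1358.

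The lowest of these genes, *cars-2*, was at 2.74 normalized CPM in its lowest wild-type library. Groups of 3 libraries give wider errors than groups of 6, so values that missed the threshold there do not show that the strains are alike.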
